A study of Rattus norvegicus with 11 samples.

Results

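Oxidative phosphorylation is carried out by 5 protein complexes of the inner mitochondrial membrane, most of whose subunits are encoded by nuclear genes. Complexes I, III and IV pump protons as electrons pass from NADH to oxygen, complex II feeds electrons from succinate into the same chain, and complex V, the ATP synthase, uses the proton gradient to make ATP. Complexes I, III, IV and V also contain subunits encoded in mitochondrial DNA, so they are built from the products of both genomes, and neurons draw most of the ATP for ion pumping and synaptic transmission from them.

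The nuclear subunit genes described here are all entries of the count files whose symbol starts with Ndufa, Ndufb, Ndufc, Ndufs or Ndufv and a digit, with Uqcr, with Cox4 to Cox8 or with Atp5, or equals Sdha, Sdhb, Sdhc, Sdhd or Cyc1. The rule found 97 of 42172 genes, and 82 of them passed the low-count filter, among 17294 genes that did. The RNA came from primary hippocampal neurons of CD (Sprague Dawley) rats on day 7 in vitro. The cultures expressed 1 of 3 proteins from an introduced gene: H1.4 CFT (4 libraries), a mutant of the linker histone H1.4 with a frameshifted C-terminal tail, WT H1.4 (4 libraries), its normal form, or GFP (3 libraries, numbered 2, 3 and 4), a fluorescent protein used as control. All 3 groups thus carry an introduced gene, and its promoter, the age of the animals and whether tissue of several animals was pooled are not given in the sources used here.

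Polyadenylated RNA was sequenced, and between 12070941 and 18846492 reads per library were assigned to genes. Levels are given as CPM, each gene's count scaled to a common library total, after TMM scaling, which adjusts that total for the library's makeup. A gene is said to have risen or fallen only where the edgeR quasi-likelihood test, fitted to all 11 libraries, gave a p under 0.05 after Benjamini-Hochberg adjustment over the 17294 genes. The labels call the libraries biological replicates. Libraries numbered 1 and 2 stood apart from those numbered 3 and 4 within each group: the chi-square of their counts per gene was 1.79 to 2.26 between libraries of the same number pair and 3.79 to 9.27 across pairs, and GFP has only library 2 of the first pair. The rat gene of the same histone, H1f4, had 0.284 to 0.450 CPM in H1.4 CFT, 0.0551 to 0.303 CPM in WT H1.4 and 0 to 0.145 CPM in GFP, so it does not check the labels, and whether the introduced sequences would be counted there is not given in the sources used here.

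Relative to WT H1.4, 21 subunit genes rose and 3 fell in H1.4 CFT neurons. This is 25.6% and 3.66% of the 82 tested, where 16.7% of all genes rose and 19.2% fell. The changes were small. The median log2 fold change of the subunits was 0.0747, against 0.0176 over all genes tested, 59 of the 82 values were above 0, and 2 exceeded 1.5-fold in either direction. These were Cox6b2 (log2 fold change -0.88), at low counts, and the pseudogene entry Ndufv3-ps1 (1.06), with 3 to 19 counts per library. Ndufv3-ps1 did not pass (adjusted p = 0.0586 by edgeR). Without WT H1.4 library 4 the number that rose was 13, and without WT H1.4 library 2 the number that fell was 5. Relative to GFP, 5 subunits rose and 8 fell in H1.4 CFT neurons, with 13.3% of all genes rising and 16.2% falling. The rises numbered 3 without H1.4 CFT library 4, GFP library 2 or GFP library 4, and the falls 16 without GFP library 2 and 3 without GFP library 3 or 4. Between WT H1.4 and GFP, 0 rose and 2 fell by edgeR, where 0.434% and 0.509% of all genes did. DESeq2 gave the same counts, and at an unadjusted p under 0.05 1 was higher and 20 were lower. The share of all genes at the unadjusted threshold was not counted, and 0.434% and 0.509% are no measure for it.

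Summed over each complex, subunit RNA was higher in every H1.4 CFT library than in any WT H1.4 library for complexes I, II, III and V. Complex I summed to 1958, 1981, 2008 and 2050 CPM in H1.4 CFT libraries 1 to 4, against 1904, 1909, 1855 and 1847 CPM in WT H1.4 and 1835, 2085 and 2054 CPM in GFP libraries 2 to 4. Complex II summed to 367, 377, 385 and 392 CPM in H1.4 CFT, to 361, 358, 348 and 351 CPM in WT H1.4 and to 358, 389 and 385 CPM in GFP. Complex V summed to between 2840 and 2888 CPM in H1.4 CFT, between 2738 and 2814 CPM in WT H1.4 and between 2760 and 3090 CPM in GFP. For complex IV the ranges of H1.4 CFT and WT H1.4 met, at 1366 to 1400 and 1300 to 1368 CPM. In every complex GFP library 2 lay below GFP libraries 3 and 4, so GFP spanned a wider range than either histone group. As a share of all gene counts, without TMM scaling, the nuclear subunits made up 0.750% to 0.798% in H1.4 CFT, 0.678% to 0.705% in WT H1.4 and 0.691% to 0.778% in GFP.

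**Figure D1:**
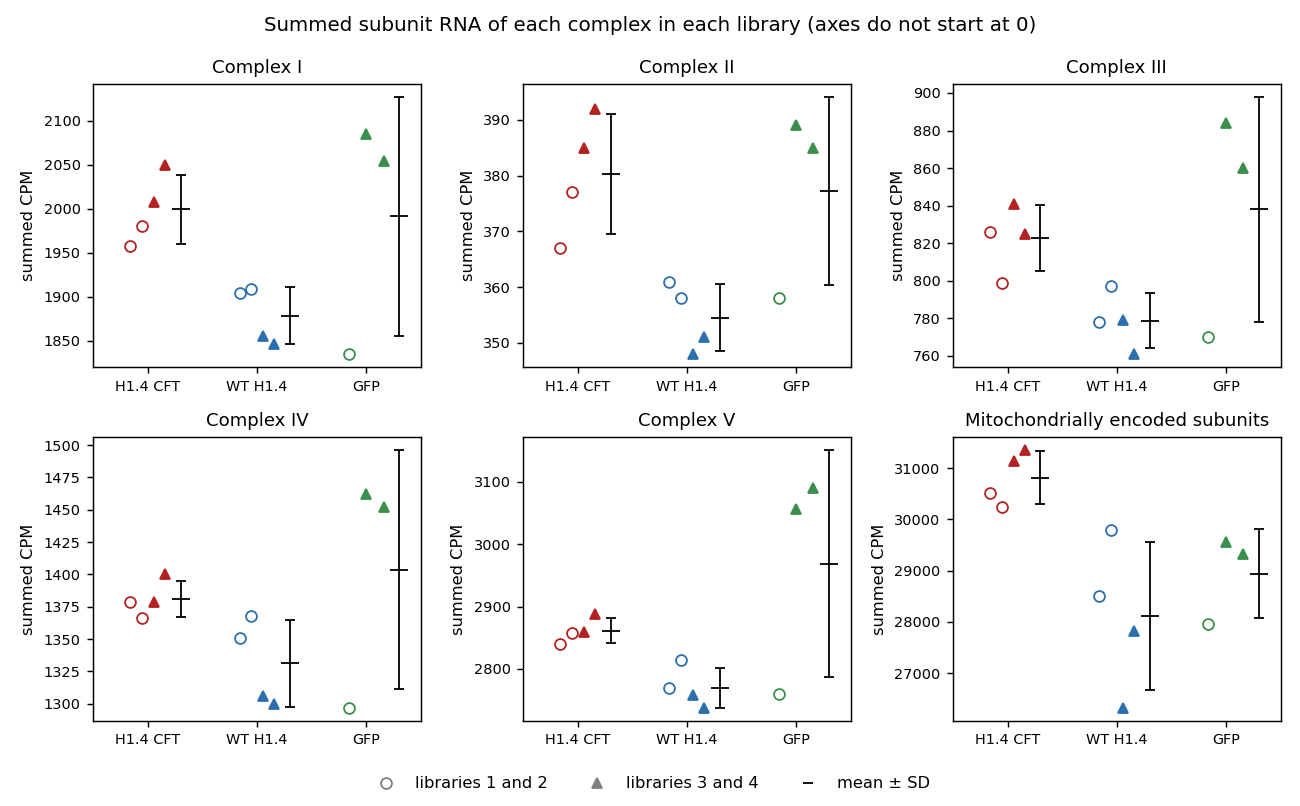
Summed CPM of the nuclear subunits of complexes I to V and of the mitochondrially encoded subunits (y axes, not starting at 0) in each library of H1.4 CFT, WT H1.4 and GFP; circles are libraries 1 and 2, triangles libraries 3 and 4, bars mean ± SD. H1.4 CFT libraries lie above WT H1.4 libraries in complexes I, II, III and V, and the lone GFP circle lies below both GFP triangles in every panel.

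Cell type markers also differed between the groups, the neuron sum being lowest in H1.4 CFT and the astrocyte sum lowest in WT H1.4. The 10 neuron markers summed to 3961 to 4664 CPM in H1.4 CFT, 5623 to 5740 CPM in WT H1.4 and 5576 to 5709 CPM in GFP. The 10 astrocyte markers summed to 2078 to 2181 CPM in H1.4 CFT, 1576 to 1693 CPM in WT H1.4 and 2011 to 2183 CPM in GFP. Against WT H1.4, 2 neuron markers rose and 6 fell in H1.4 CFT, while 7 astrocyte markers rose and 0 fell. The shares of all genes that rose and fell between these groups were 16.7% and 19.2%. Between WT H1.4 and GFP, 6 astrocyte markers fell and 0 rose, where 0.509% and 0.434% of all genes did. Of 9 oligodendrocyte lineage markers 0 rose and 0 fell in H1.4 CFT relative to WT H1.4, and of 10 vascular and fibroblast markers 3 rose and 1 fell. Muscle markers summed to 21.2 to 28.6 CPM in H1.4 CFT, 17.1 to 18.8 CPM in WT H1.4 and 15.5 to 17.1 CPM in GFP, with Tnni2 at 0 throughout, and 2 of 7 tested rose and 0 fell against WT H1.4. Of 9 microglia markers 2 were tested, of which 1 rose and 1 fell, and the 9 summed to 8.12 to 11.8 CPM in H1.4 CFT, 10.6 to 14.2 CPM in WT H1.4 and 11.1 to 12.8 CPM in GFP. The part of these markers in the subunit differences was not tested, and in bulk RNA fewer cells of a type and less RNA per cell cannot be told apart. Map2, 1 of the 6 neuron markers that fell against WT H1.4 while 2 rose, averaged 905 ± 87.9 CPM in H1.4 CFT. It averaged 1319 ± 55.4 CPM in WT H1.4 and 1400.0 ± 65.4 CPM in GFP (SD, n = 4, 4 and 3). Map2, Tubb3 (mean 1237 CPM) and Stmn2 (mean 1089 CPM), which all fell, make up much of the neuron sum in H1.4 CFT.

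The promoters of 4 subunits that differed between the histone groups are shown because they carry, or lack, the motifs for which promoters of this gene family are known: binding sequences of NRF1 and of ETS-family factors such as GABP, which regulate nuclear genes of mitochondria. Sdhd, Atp5po and Atp5pf rose in H1.4 CFT relative to WT H1.4, and Cox7a2l fell. The 4 were picked for display and do not tie a motif to a direction of change. Ndufs1 and Atp5me, which fell in H1.4 CFT relative to GFP, also hold the ETS core. The sequences are the 250 bases before the annotated start, from RefSeq on the GRCr8 build, written 5′ to 3′ on the gene's strand. Capitals mark the ETS core (ccggaag or its reverse complement) in Sdhd and Atp5pf and the 10-letter NRF1 sequence in Atp5po, and Cox7a2l has none of the motifs searched.
Sdhd, chr8:59850642-59850891, minus strand: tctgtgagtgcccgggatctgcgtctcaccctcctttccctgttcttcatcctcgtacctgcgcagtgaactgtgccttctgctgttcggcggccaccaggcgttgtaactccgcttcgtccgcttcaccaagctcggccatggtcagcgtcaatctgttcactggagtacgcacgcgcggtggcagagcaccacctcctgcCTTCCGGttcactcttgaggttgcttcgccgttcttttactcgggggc
Atp5po, chr11:44657484-44657733, minus strand: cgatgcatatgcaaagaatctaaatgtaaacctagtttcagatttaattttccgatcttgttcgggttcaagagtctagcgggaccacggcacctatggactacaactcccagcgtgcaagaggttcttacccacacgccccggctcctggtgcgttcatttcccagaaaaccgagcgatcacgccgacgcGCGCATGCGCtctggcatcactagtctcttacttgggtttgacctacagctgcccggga
Atp5pf, chr11:37375102-37375351, minus strand: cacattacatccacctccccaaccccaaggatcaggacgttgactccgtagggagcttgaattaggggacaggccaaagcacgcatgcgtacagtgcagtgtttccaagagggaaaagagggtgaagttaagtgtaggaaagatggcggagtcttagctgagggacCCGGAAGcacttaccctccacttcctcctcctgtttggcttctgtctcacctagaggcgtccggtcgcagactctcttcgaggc
Cox7a2l, chr6:16936324-16936573, plus strand: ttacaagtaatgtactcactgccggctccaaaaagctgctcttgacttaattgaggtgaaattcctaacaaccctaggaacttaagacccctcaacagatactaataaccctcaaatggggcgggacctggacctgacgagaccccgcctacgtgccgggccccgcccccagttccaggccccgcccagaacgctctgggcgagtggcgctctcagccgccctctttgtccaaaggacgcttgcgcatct

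The ETS core lay 48 bases before the start in Sdhd and 84 bases in Atp5pf, and the NRF1 sequence 59 bases before the start in Atp5po. A further ETS core and an ERR sequence (tcaaggtca) of Sdhd lay past the start, outside the printed stretch. A promoter from 250 bases before to 50 after the start was found for 75 of the 97 genes, and motifs were searched in it on both strands. The ETS core stood in 28% of these promoters and in 8.75% of all 33469 promoters in the RefSeq table, the NRF1 sequence in 5.33% and 0.852%, and the sequence of YY1, a further regulator, in 9.33% and 0.675%. The ERR sequence stood in 2.67% and 0.433%, and the CRE sequence (tgacgtca) in 5.33% and 1.83%. Among the 16 promoters of subunits that rose in H1.4 CFT relative to WT H1.4, 6 held the ETS core and 3 the YY1 sequence. Among the 51 promoters of subunits that did not pass in that comparison, 15 held the ETS core and 4 the YY1 sequence. A match describes these letters only and is no evidence of binding. Gabpa RNA, which encodes the DNA-binding subunit of GABP, did not pass between the histone groups (log2 fold change 0.02, adjusted p = 0.818 by edgeR).

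Complex I takes electrons from NADH through a flavin and a row of iron-sulfur clusters to ubiquinone. Ndufs7, of its catalytic core, encodes the subunit with the last iron-sulfur cluster before quinone. Its level was 40.8, 45.2, 46.2 and 40.5 CPM in H1.4 CFT, 34.3, 36.5, 34.1 and 33.1 CPM in WT H1.4 and 30.4, 38.0 and 36.4 CPM in GFP. All H1.4 CFT libraries were above all others. The log2 fold change was 0.33 (SE 0.0704, adjusted p = 0.00127) against WT H1.4 and 0.31 (SE 0.0774, adjusted p = 0.00535) against GFP. The flavin-bearing Ndufv1, its neighbour Ndufv2, Ndufs3 and Ndufs8 had log2 fold changes between -0.04 and 0 against WT H1.4 and did not pass.

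The accessory subunits of complex I surround this core and are needed for its assembly and stability. Of 28, 8 rose and 0 fell in H1.4 CFT relative to WT H1.4, where 16.7% and 19.2% of all genes did. The median log2 fold change of the 28 was 0.0809. Ndufa13, also known as GRIM-19, had 47.8, 48.9, 47.9 and 51.7 CPM in H1.4 CFT, 39.9, 40.1, 42.6 and 40.1 CPM in WT H1.4 and 36.3, 44.9 and 43.5 CPM in GFP. It was higher in every H1.4 CFT library than in any other library, with a log2 fold change of 0.27 (SE 0.0631, adjusted p = 0.00234) against WT H1.4 and 0.24 (SE 0.0693, adjusted p = 0.0124) against GFP. Ndufs4, an accessory subunit whose loss causes Leigh syndrome in humans, had 70.0, 68.2, 81.3 and 83.1 CPM in H1.4 CFT, 60.8, 63.8, 62.4 and 63.2 CPM in WT H1.4 and 59.3, 71.9 and 65.5 CPM in GFP. H1.4 CFT libraries lay above WT H1.4 libraries (log2 fold change 0.28, SE 0.0662, adjusted p = 0.00319), and 1 GFP library overlapped them (0.21, SE 0.0725, adjusted p = 0.0357). Ndufa8, Ndufa10, Ndufv3, Ndufb7, Ndufb8 and Ndufb9 also rose against WT H1.4, with log2 fold changes of 0.15 to 0.24. The calls of Ndufb7, Ndufb8 and Ndufb9 were each lost on leaving out any 1 of 3 libraries, with adjusted p of 0.0579 to 0.109 by edgeR. With libraries 1 and 2 alone, those of Ndufs4, Ndufa8, Ndufv3 and Ndufb7 were lost. That of Ndufa10 was lost with libraries 3 and 4 alone (adjusted p = 0.0678 by edgeR). Ndufb9 overlaps Tatdn1 in the annotation, and Tatdn1 rose too (0.31, adjusted p = 0.00115), so without a stated strand setting their reads cannot be told apart.

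Complex II, succinate dehydrogenase, is the only complex with no subunit from mitochondrial DNA. Its catalytic head faces the matrix, and Sdhc and Sdhd anchor it in the membrane and bind ubiquinone. Both anchors rose in H1.4 CFT relative to WT H1.4, while the head subunit Sdha, the flavoprotein that oxidises succinate, fell. Sdhd, whose promoter is shown above, had 78.3, 78.2, 81.6 and 85.0 CPM in H1.4 CFT, 64.9, 67.6, 59.5 and 63.1 CPM in WT H1.4 and 68.1, 76.6 and 69.0 CPM in GFP. Every H1.4 CFT library exceeded every other library. The log2 fold change was 0.34 (SE 0.0527, adjusted p = 5.69e-05) against WT H1.4, a 1.27-fold difference, and 0.18 (SE 0.0574, adjusted p = 0.0203) against GFP. Sdhc had 95.0, 102, 104 and 104 CPM in H1.4 CFT, 89.8, 88.0, 86.8 and 88.8 CPM in WT H1.4 and 95.0, 102 and 99.3 CPM in GFP. It rose against WT H1.4 (log2 fold change 0.19, SE 0.0432, adjusted p = 0.00172), and the values of H1.4 CFT and GFP overlapped. Sdha had 104, 107, 108 and 107 CPM in H1.4 CFT, 118, 114, 114 and 116 CPM in WT H1.4 and 109, 116 and 125 CPM in GFP. Its H1.4 CFT libraries were the 4 lowest of the 11, and the log2 fold change was -0.12 against WT H1.4 (SE 0.0435, adjusted p = 0.0389) and -0.13 against GFP (SE 0.0473, adjusted p = 0.0390). The fall of Sdha held in 9 of 18 other settings against WT H1.4 and in 6 of 17 against GFP. In the fit with the replicate number as a block, its adjusted p against GFP was 0.0501. The iron-sulfur subunit Sdhb did not pass (log2 fold change 0.08, adjusted p = 0.155).

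Complex III passes electrons from ubiquinol to cytochrome c. Of its 9 nuclear genes, 2 rose and 0 fell in H1.4 CFT relative to WT H1.4, where 16.7% and 19.2% of all genes did. Uqcrc2, a core protein and the gene of the complex with the most counts, had 164, 153, 166 and 167 CPM in H1.4 CFT, 144, 155, 145 and 144 CPM in WT H1.4 and 150, 161 and 160 CPM in GFP. The 2 histone groups overlapped through WT H1.4 library 2 and H1.4 CFT library 2 (log2 fold change 0.14, SE 0.0434, adjusted p = 0.0148). Uqcrh, the hinge protein, rose by 0.18 on the log2 scale (adjusted p = 0.0363 by edgeR). The Uqcrh call was lost with libraries 1 and 2 alone (adjusted p = 0.75) and without WT H1.4 library 1, 3 or 4 or H1.4 CFT library 3 or 4 (adjusted p = 0.0696 to 0.118). That of Uqcrc2 was lost with libraries 1 and 2 alone (adjusted p = 0.203) and without WT H1.4 library 4 (adjusted p = 0.0502). The Rieske iron-sulfur protein Uqcrfs1 had a log2 fold change of -0.12 and did not pass (adjusted p = 0.105).

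Complex IV, cytochrome c oxidase, has nuclear subunits present in most tissues and others that replace them in muscle, testis or low oxygen. Of the 11 ubiquitous ones, 2 rose in H1.4 CFT relative to WT H1.4 and 0 fell, where 16.7% and 19.2% of all genes did. The rises were thus a share close to that of all genes. Cox6a1, which had the most counts in the complex, had 218, 220, 216 and 216 CPM in H1.4 CFT, 203, 201, 200 and 196 CPM in WT H1.4 and 199, 225 and 222 CPM in GFP. Its H1.4 CFT values were above those of WT H1.4 and inside the GFP range (log2 fold change against WT H1.4 0.12, SE 0.0415, adjusted p = 0.0309). This call held in 10 of 18 other settings and was lost on leaving out any histone library except H1.4 CFT library 4 (adjusted p = 0.0501 to 0.0861 by edgeR). Cox7b had 67.1, 60.9, 70.8 and 65.5 CPM in H1.4 CFT and 58.7, 61.3, 56.8 and 51.8 CPM in WT H1.4 (log2 fold change 0.21, SE 0.0611, adjusted p = 0.0107), a call lost with libraries 1 and 2 alone (adjusted p = 0.282) and without WT H1.4 library 4 (adjusted p = 0.0533). Cox4i1, Cox5b, Cox6c, Cox7a2, Cox7c, Cox8a and Ndufa4 did not pass in any comparison. Of the replacing isoforms, Cox6b2, known from testis, fell in H1.4 CFT relative to WT H1.4. It had 3.52, 4.00, 2.73 and 2.13 CPM in H1.4 CFT, 6.01, 7.02, 4.63 and 5.22 CPM in WT H1.4 and 5.16, 3.44 and 3.61 CPM in GFP. Its log2 fold change of -0.88 (SE 0.198, adjusted p = 0.00172) against WT H1.4 was the largest fall among the 82, at low counts, and against GFP it did not pass (-0.40, SE 0.225, adjusted p = 0.193). Cox4i2 and Ndufa4l2, known for their response to low oxygen, had at most 5.09 CPM in any library and did not pass. Cox6a2, Cox7b2, Cox8b and Cox8c were below the filter, Cox6a2 with 0 counts in all 4 H1.4 CFT libraries and 0 to 7 in the others. The muscle isoform Cox7a1 appeared under a locus identifier and did not pass, with 85.9 ± 6.06 CPM in H1.4 CFT and 92.5 ± 8.96 CPM in WT H1.4 (SD, n = 4 each).

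Cox7a2l encodes SCAF1, a protein related to a complex IV subunit that joins complexes III and IV into supercomplexes. It had 71.8, 68.4, 66.8 and 72.9 CPM in H1.4 CFT, 90.0, 90.5, 87.6 and 87.7 CPM in WT H1.4 and 81.6, 95.2 and 95.2 CPM in GFP. The highest H1.4 CFT library was below the lowest library of both other groups. The log2 fold change was -0.35 (SE 0.0515, adjusted p = 4.14e-05) against WT H1.4 and -0.37 (SE 0.0558, adjusted p = 5.59e-05) against GFP, the smallest adjusted p of any subunit in each comparison. Between WT H1.4 and GFP it did not pass (-0.03, SE 0.0556, adjusted p = 0.905). The falls in H1.4 CFT held in all 18 other settings against WT H1.4 and all 17 against GFP. In the GRCr8 annotation Cox7a2l overlaps a long noncoding RNA.

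**Figure D2:**
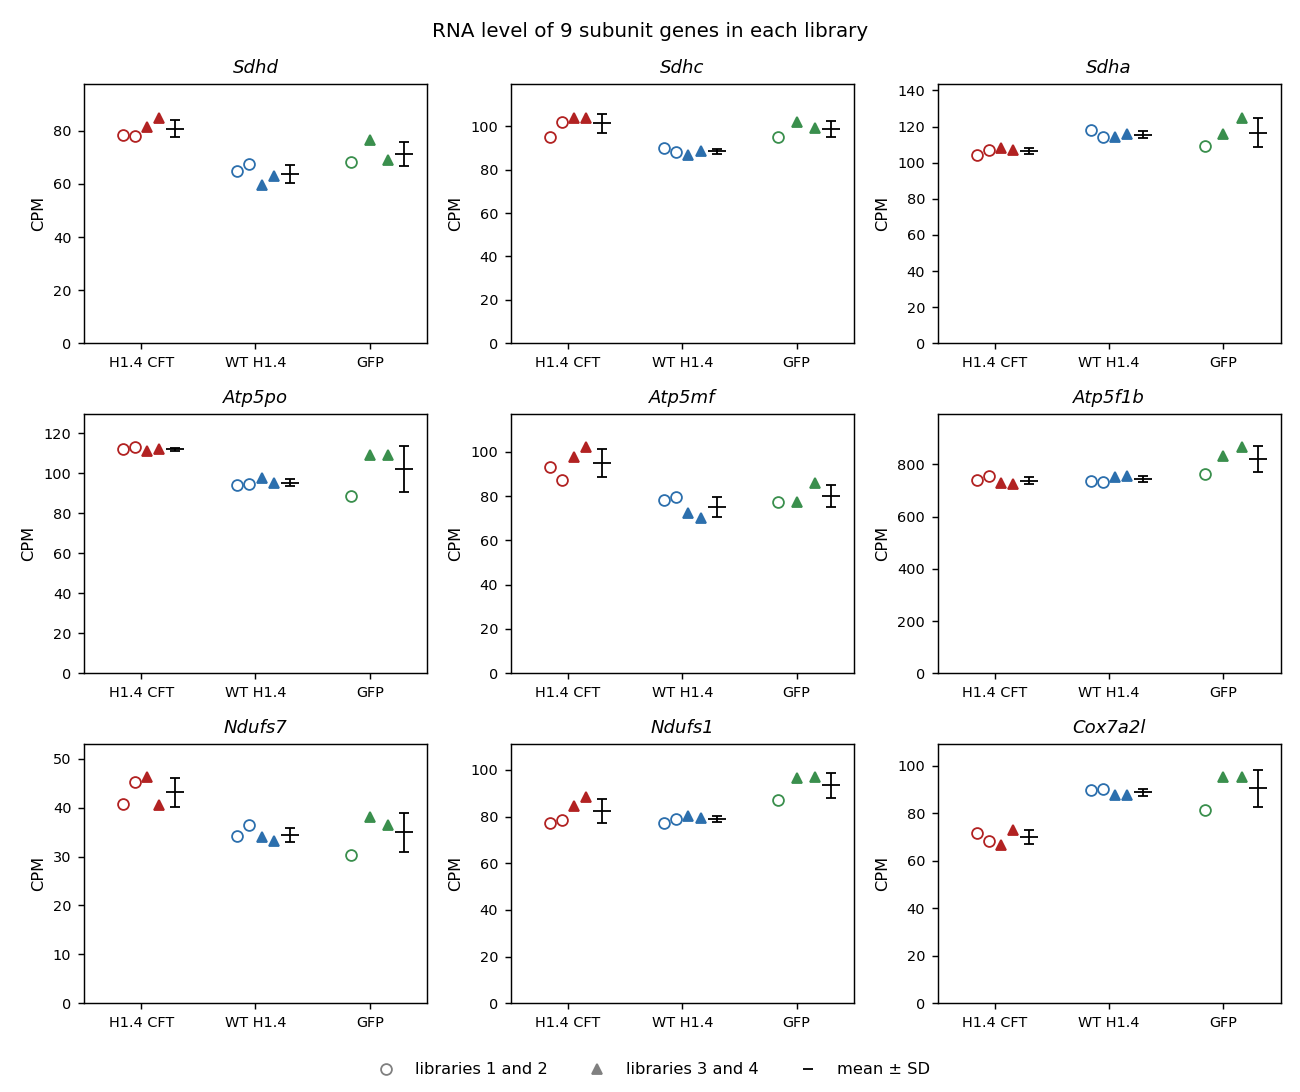
CPM (y axes, from 0) of 9 subunit genes in each library of H1.4 CFT, WT H1.4 and GFP; circles are libraries 1 and 2, triangles libraries 3 and 4, bars mean ± SD. Sdhd, Atp5mf and Ndufs7 are highest and Cox7a2l lowest in H1.4 CFT, while Ndufs1 and Atp5f1b are highest in GFP.

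Complex V makes ATP in its catalytic head, turned by a ring of c subunits in the membrane and held still by a peripheral stalk. All 4 peripheral stalk genes rose in H1.4 CFT relative to WT H1.4, and 0 of the 5 genes of the head and central stalk passed. Of all genes, 16.7% rose and 19.2% fell in this comparison. Atp5po, the stalk subunit OSCP that sits on top of the head, had 112, 113, 111 and 112 CPM in H1.4 CFT, 94.2, 94.5, 97.9 and 95.0 CPM in WT H1.4 and 88.9, 109 and 109 CPM in GFP. Atp5pb, subunit b, had 173, 173, 182 and 174 CPM in H1.4 CFT, 164, 161, 147 and 150 CPM in WT H1.4 and 165, 164 and 173 CPM in GFP. For both genes every H1.4 CFT library was above every WT H1.4 library. The log2 fold changes against WT H1.4 were 0.23 for Atp5po (SE 0.0528, adjusted p = 0.00194), 0.18 for Atp5pb (adjusted p = 0.00328), 0.17 for Atp5pd (adjusted p = 0.00955) and 0.17 for Atp5pf (adjusted p = 0.0152), by edgeR. With libraries 1 and 2 alone only Atp5po of the 4 passed (adjusted p by edgeR 0.0989 for Atp5pb, 0.362 for Atp5pd and 0.359 for Atp5pf), and Atp5pf was also lost without WT H1.4 library 3 or 4 (adjusted p = 0.0528 and 0.0553). Against GFP the log2 fold changes were 0.05 to 0.13 and none of the 4 passed. Atp5pf overlaps Gabpa in the annotation, whose own counts did not pass.

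The catalytic subunit Atp5f1b had the most counts of all subunits, with 742, 755, 730 and 725 CPM in H1.4 CFT, 738, 731, 753 and 754 CPM in WT H1.4 and 765, 833 and 865 CPM in GFP. H1.4 CFT and WT H1.4 overlapped (log2 fold change -0.01, adjusted p = 0.849), and both lay below GFP. The fall against GFP passed for H1.4 CFT (-0.15, SE 0.0441, adjusted p = 0.0123), not for WT H1.4 (-0.14, SE 0.0441, adjusted p = 0.156). Of the small membrane subunits, Atp5mf, subunit f, rose. It had 93.2, 87.1, 97.5 and 102 CPM in H1.4 CFT, 78.4, 79.6, 72.3 and 70.0 CPM in WT H1.4 and 77.2, 77.3 and 86.0 CPM in GFP. Every H1.4 CFT library exceeded every other library. The log2 fold change was 0.34 against WT H1.4 (SE 0.0567, adjusted p = 0.000131) and 0.24 against GFP (SE 0.0619, adjusted p = 0.00579). In the annotation Atp5mf overlaps Hint1l2, a protein-coding gene. Atp5if1, the inhibitor that stops the enzyme from running in reverse, had 67.2, 69.4, 66.9 and 66.9 CPM in H1.4 CFT, 73.9, 69.4, 78.0 and 72.0 CPM in WT H1.4 and 70.3, 74.0 and 77.0 CPM in GFP. It was lower in H1.4 CFT in each comparison without passing (adjusted p = 0.0606 against WT H1.4 and 0.0749 against GFP, by edgeR).

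**Figure D3:**
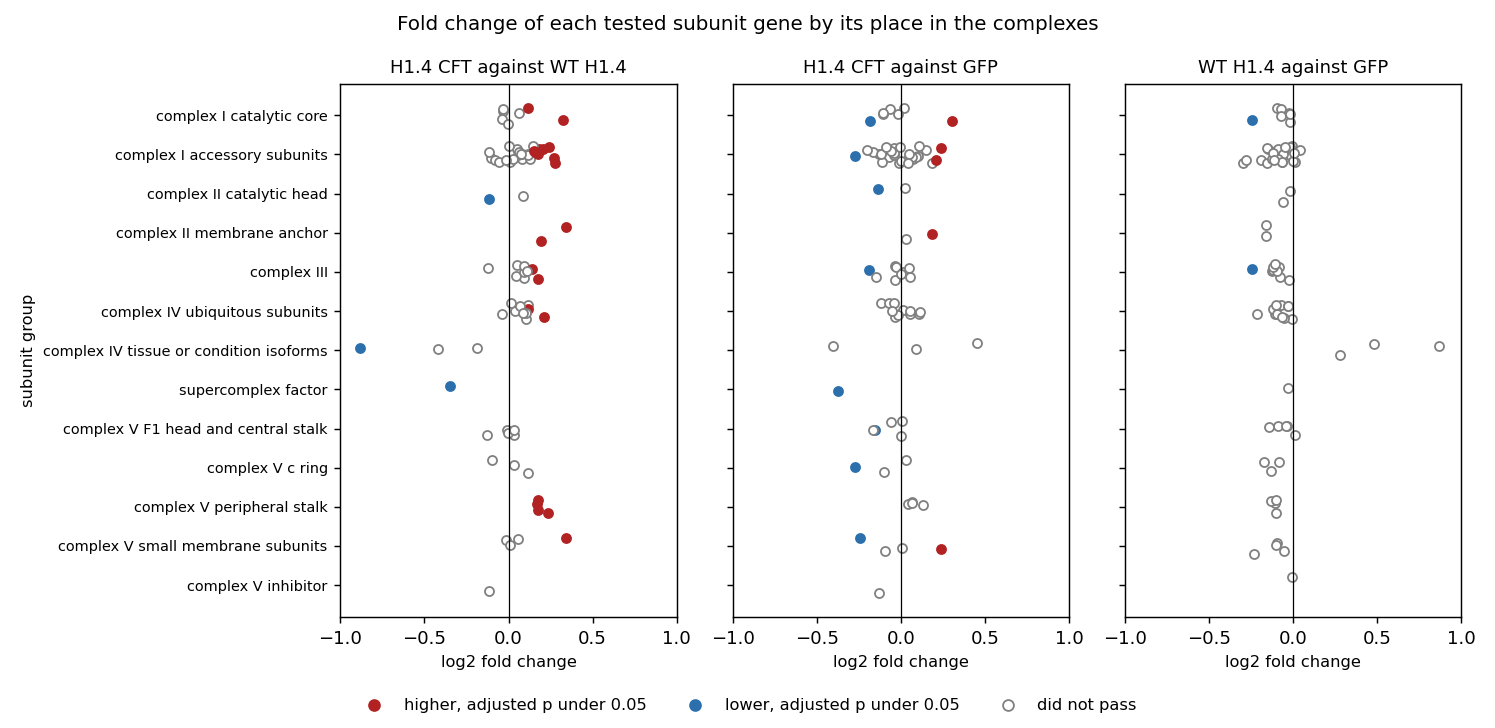
Log2 fold change (x axes) of 80 tested subunit genes, grouped by complex and role (y axis), in the 3 comparisons, H1.4 CFT over WT H1.4, H1.4 CFT over GFP and WT H1.4 over GFP from left to right; filled points passed at an adjusted p under 0.05, and the 2 tested copy entries are left out. All 4 peripheral stalk genes are filled on the right in the first panel, and nearly all points of the third panel lie left of 0 without passing.

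The comparison of H1.4 CFT with GFP shares its H1.4 CFT libraries with the comparison above, and its 5 rises (Ndufs7, Atp5mf, Ndufa13, Sdhd and Ndufs4) were genes that also rose against WT H1.4. Its 8 falls were Cox7a2l, Atp5mc1, Ndufb2, Atp5f1b, Ndufs1, Uqcr11, Atp5me and Sdha. Atp5mc1, which encodes a c-ring subunit, had 59.4, 58.2, 53.7 and 55.4 CPM in H1.4 CFT, 62.1, 61.0, 62.2 and 57.3 CPM in WT H1.4 and 62.6, 71.6 and 71.2 CPM in GFP. H1.4 CFT lay below GFP throughout (log2 fold change -0.27, SE 0.0594, adjusted p = 0.00169), and the other c-ring genes, Atp5mc2 and Atp5mc3, did not pass (0.03 and -0.10). Ndufb2, a complex I accessory subunit, had 39.8, 34.9, 35.4 and 39.5 CPM in H1.4 CFT and 40.9, 50.8 and 43.9 CPM in GFP (log2 fold change -0.27, SE 0.0744, adjusted p = 0.00973). Over the 82 genes the median log2 fold change was -0.00183, with 41 above and 41 below 0, and over all genes it was 0.0111. The median of the 82 was -0.0592 without GFP library 2, 0.0264 without GFP library 3 and 0.0133 without GFP library 4, so its sign turned on single libraries. Of the calls against GFP, those of Sdhd and Ndufs4 were lost without H1.4 CFT library 4, GFP library 2 or GFP library 4, and Ndufs4 also without H1.4 CFT library 3. Ndufa13 was lost without GFP library 2, Ndufb2 without GFP library 3 and Atp5f1b without GFP library 4. Ndufs1 and Uqcr11 were lost without GFP library 3 or 4, and Atp5me without either of these or H1.4 CFT library 2 or 3.

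Ndufs1 and Uqcr11 were the only subunits past the threshold between WT H1.4 and GFP. Ndufs1, the largest iron-sulfur subunit of complex I, had 77.1, 79.1, 80.2 and 79.3 CPM in WT H1.4 and 87.3, 96.4 and 96.8 CPM in GFP (log2 fold change -0.24, SE 0.0549, adjusted p = 0.0339). Uqcr11, a small subunit of complex III, had 78.0, 74.7, 78.6 and 75.6 CPM in WT H1.4 and 82.0, 98.4 and 91.8 CPM in GFP (-0.24, SE 0.0573, adjusted p = 0.0480). In both genes WT H1.4 and GFP did not overlap, and H1.4 CFT fell against GFP too, by 0.18 and 0.19 on the log2 scale. These falls are measured against the same GFP libraries, so they are not independent of those in WT H1.4. Both calls were lost when any of the 4 WT H1.4 libraries, or GFP library 3 or 4, was left out. Of the 82 log2 fold changes 73 were below 0, with a median of -0.082 against -0.0011 over all genes, and 11 genes were lower in every WT H1.4 library than in any GFP library, where 5.94% of all genes were.

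The size and, against GFP, the direction of these shifts differed between the number pairs of the libraries. With libraries 3 and 4 alone, 35 subunits rose and 4 fell in H1.4 CFT relative to WT H1.4, with 20% and 23.7% of all genes doing so, and the median log2 fold change was 0.117. With libraries 1 and 2 alone, 11 rose and 4 fell (11.4% and 15.3% of all genes), and the median was 0.0253. Relative to GFP, 6 rose and 17 fell in H1.4 CFT in libraries 3 and 4 (17.2% and 21.6% of all genes), with a median of -0.0647. In libraries 1 and 2 12 rose and Cox7a2l alone fell (6.96% and 11.7% of all genes), with a median of 0.0704. There library 2 is the lone GFP library and is assumed to vary like the others. Between WT H1.4 and GFP the median was -0.158 in libraries 3 and 4, where Cox4i2 rose and 37 of 81 subunits fell (5.5% and 3.75% of all genes). It was 0.0671 in libraries 1 and 2, where 0 rose and 0 fell (0.567% and 0.639%). Without GFP library 2, 3 subunits rose and 16 fell in H1.4 CFT relative to GFP (10.8% and 13.2% of all genes), and 1 rose and 5 fell in WT H1.4 (0.918% and 0.816%). Of the subunits called between the histone groups, 11 (Cox7a2l, Cox6b2, Sdhd, Sdhc, Atp5mf, Atp5po, Ndufs7, Ndufa13, Ndufb8, Ndufb9 and Cox6a1) passed in the same direction against WT H1.4 within each number pair. The share of all genes that did so was not determined.

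**Figure D4:**
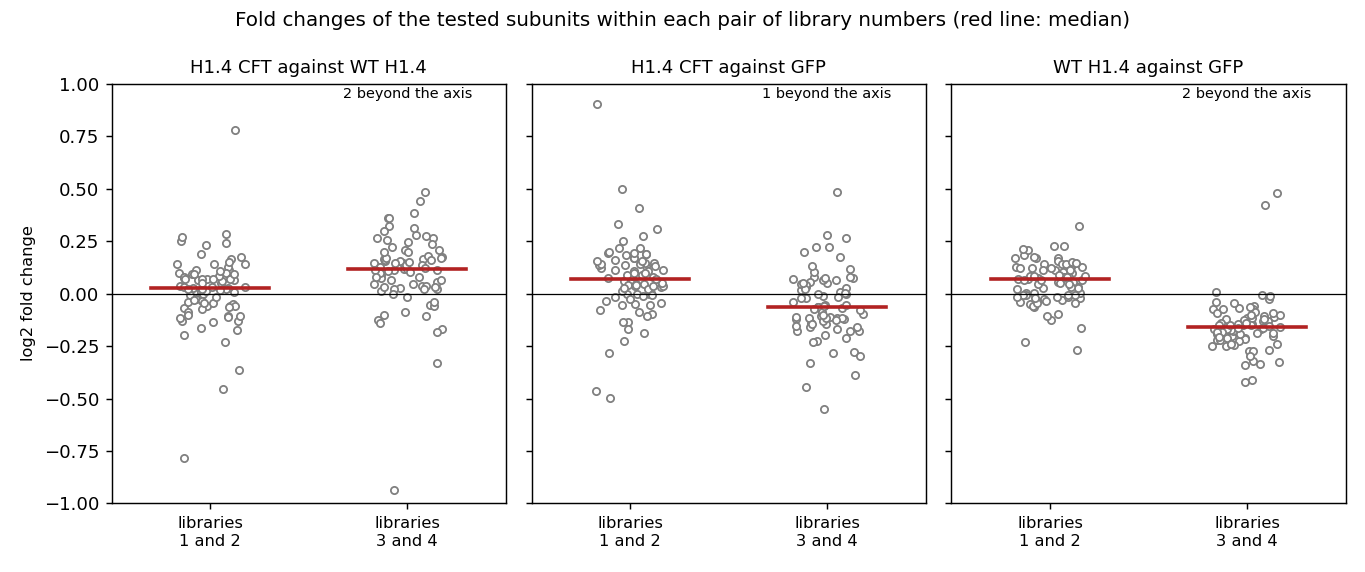
Log2 fold changes (y axis) of the tested subunits in the 3 comparisons, each fitted with libraries 1 and 2 alone (left in each panel, GFP with library 2 only) or libraries 3 and 4 alone (right); red lines are medians and points beyond the axis are counted. The median of WT H1.4 over GFP is 0.0671 on the left and -0.158 on the right.

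The entry Ndufa10l1, a copy of Ndufa10 by its symbol, followed the number pair and not the introduced protein. It had 35, 35, 1 and 3 counts in H1.4 CFT libraries 1 to 4, 42, 30, 1 and 2 counts in WT H1.4 libraries 1 to 4, and 28, 2 and 3 counts in GFP libraries 2 to 4. The 5 libraries numbered 1 or 2 thus held 1.97 to 2.28 CPM and the 6 numbered 3 or 4 held 0.0551 to 0.180 CPM. Reads shared with Ndufa10 could have been split between the entries, so the level is uncertain. Ndufa10 itself averaged 97.2 ± 2.72 CPM in H1.4 CFT, 85.8 ± 4.19 CPM in WT H1.4 and 90.5 ± 3.46 CPM in GFP (SD, n = 4, 4 and 3), with no such split.

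The other 12 pseudogene and copy entries had between 0 and 19 counts in any library, the highest in Ndufv3-ps1. The entry named Ndufs6 had 0 to 4 counts. In the GRCr8 gene table that name is a synonym of a pseudogene, and the protein-coding Ndufs6, an accessory subunit of complex I, matched by gene identifier to the entry LOC679739. That entry rose in H1.4 CFT relative to WT H1.4 (43.6 ± 2.33 CPM in H1.4 CFT, 37.3 ± 5.02 CPM in WT H1.4, SD, n = 4 each, log2 fold change 0.23, SE 0.0788, adjusted p = 0.0301 by edgeR). The entry LOC100912557, which matched Atp5mpl, a small subunit of complex V that the symbol rule misses because the files list it by locus identifier, rose too (28.0 ± 1.64 CPM in H1.4 CFT, 24.9 ± 1.30 CPM in WT H1.4, SD, n = 4 each, log2 fold change 0.18, adjusted p = 0.0491). Of the 97 genes, 34 overlap another annotated gene in GRCr8, a newer assembly than the one the counts used.

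The 13 mitochondrially encoded subunits summed to 30513, 30244, 31148 and 31352 CPM in H1.4 CFT, 28508, 29785, 26324 and 27821 CPM in WT H1.4 and 27953, 29555 and 29317 CPM in GFP. Every H1.4 CFT library was above every other library. Against WT H1.4, 7 rose and 0 fell (16.7% and 19.2% of all genes), and against GFP 3 rose and 0 fell (13.3% and 16.2%). ND2, a proton-pumping subunit of complex I, averaged 1881 ± 50.7 CPM in H1.4 CFT, 1473 ± 140.2 CPM in WT H1.4 and 1522 ± 49.3 CPM in GFP (SD, n = 4, 4 and 3). Its log2 fold change was 0.35 (adjusted p = 5.31e-05) against WT H1.4 and 0.31 (adjusted p = 0.000566) against GFP, by edgeR. The ratio of mitochondrially encoded to nuclear subunit counts was 4.10 to 4.17 in H1.4 CFT, 3.73 to 4.11 in WT H1.4 and 3.74 to 3.98 in GFP, so the H1.4 CFT and WT H1.4 ranges met.

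The genes that build, feed and regulate the complexes were taken from separate lists, whose counts stand beside 16.7% of all genes rising and 19.2% falling in H1.4 CFT relative to WT H1.4, and 13.3% and 16.2% relative to GFP. Of 46 assembly factors, 9 rose and 1 fell in H1.4 CFT relative to WT H1.4, the rises a share close to that of all genes. Cox10, which makes the heme of complex IV, averaged 18.1 ± 1.25 CPM in H1.4 CFT and 13.6 ± 0.441 CPM in WT H1.4 (log2 fold change 0.41, adjusted p = 0.000763), and Coa6, a copper-handling factor of the same complex, rose by 0.55 (adjusted p = 0.00232). Tmem70, which assembles the c ring of ATP synthase, fell to 22.5 ± 1.94 CPM in H1.4 CFT, against 26.9 ± 0.651 CPM in WT H1.4 and 30.3 ± 0.698 CPM in GFP (adjusted p = 0.00692 and 0.00027). Of 24 regulators, 6 rose and 1 fell against WT H1.4, where 16.7% and 19.2% of all genes did. Tfam, which packages and transcribes mitochondrial DNA, averaged 45.1 ± 2.94 CPM in H1.4 CFT and 33.9 ± 3.42 CPM in WT H1.4 (log2 fold change 0.41, adjusted p = 0.000283). Tefm, the elongation factor of mitochondrial transcription, rose by 0.57 (adjusted p = 0.00702) and Tfb1m, a ribosomal RNA methyltransferase of the organelle, by 0.26 (adjusted p = 0.00571). Relative to GFP, 2 of the 24 regulators rose and 1 fell, where 13.3% and 16.2% of all genes did. The rises were those of Tfb1m and Hcfc1, so Tfam and Tefm did not pass against GFP. The fall was that of Ppargc1a, with 19.6 ± 3.18 CPM in H1.4 CFT and 27.0 ± 1.48 CPM in GFP (log2 fold change -0.47, adjusted p = 0.00368 by edgeR).

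Of 19 carriers and further components outside the symbol rule, 4 rose and 2 fell in H1.4 CFT relative to WT H1.4, the rises again close to the share of all genes. Against GFP 2 rose and 5 fell, among them Cycs, cytochrome c, with 81.7 ± 4.18 CPM in H1.4 CFT and 98.7 ± 11.4 CPM in GFP (log2 fold change -0.27, adjusted p = 0.0036). Pdss2 and Coq7 both act in making ubiquinone. Pdss2 rose by 0.41 against WT H1.4 (adjusted p = 0.000801), and Coq7 fell by 0.38 (adjusted p = 0.00571). Of 72 mitochondrial ribosomal protein genes, 16 rose and 5 fell against WT H1.4, where 16.7% and 19.2% of all genes did.

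The 23 tested genes of the tricarboxylic acid cycle and pyruvate entry, the source of NADH and succinate for the chain, gave 5 rises and 7 falls in H1.4 CFT relative to WT H1.4 (16.7% and 19.2% of all genes), and 3 and 8 relative to GFP (13.3% and 16.2%). Pdha1, a catalytic subunit of pyruvate dehydrogenase, averaged 124 ± 16.9 CPM in H1.4 CFT, 190.2 ± 4.15 CPM in WT H1.4 and 181 ± 2.60 CPM in GFP. Its log2 fold change of -0.62 (adjusted p = 1.76e-05) against WT H1.4 was larger than that of any subunit with more than 10 CPM. Ogdh, of the 2-oxoglutarate dehydrogenase complex, fell by 0.27 against WT H1.4 (adjusted p = 4.395e-05). Among 32 genes of import and membrane structure, 3 rose and 2 fell against WT H1.4, both below the shares of all genes, 16.7% and 19.2%. Opa1, which shapes the inner membrane, averaged 145 ± 11.4 CPM in H1.4 CFT, 183 ± 4.10 CPM in WT H1.4 and 188.5 ± 6.49 CPM in GFP. Mfn1, which fuses the outer membrane, averaged 189 ± 4.52 CPM in H1.4 CFT, 156.5 ± 9.61 CPM in WT H1.4 and 148.5 ± 6.89 CPM in GFP. Opa1 fell (adjusted p = 3.4e-05 against WT H1.4) and Mfn1 rose (adjusted p = 0.000139), by edgeR.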

How the data were processed

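Per the submitters' processing notes, reads were aligned with STAR 2.7.2b to mRatBN7.2 and counted per gene with HTSeq 0.10.0. The strand setting and annotation release are not given in the sources used here. The authors deposited whole-number counts, not normalized, for each symbol, and 5 summary entries of each file were left out. Genes took 45.9% to 46.9% of the reads, entries without a gene 45.2% to 46.0%.

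Genes passing filterByExpr by group (minimum count 10, minimum total 15) were fitted in R 4.3.3 with edgeR 4.0.16 (TMM, robust quasi-likelihood, a term for group, 8 residual degrees of freedom). Alternatives were RLE scaling, DESeq2 1.42.0, no filter, 5 CPM in 3 libraries, the replicate block, a term for number pair, each number pair alone, only the compared groups, a non-robust fit and leaving out each library. Same-numbered libraries of H1.4 CFT deviated together with those of WT H1.4 (correlations 0.142 to 0.192) and of GFP (0.124 to 0.255). Those between WT H1.4 and GFP ran from 0.0927 to 0.206. P-values measure the spread between these libraries. The fit treats the libraries of a group as independent, although those of 1 number pair lay closer together than those of different pairs. In a fit with 1 number pair alone, p-values measure only the smaller spread inside that pair.

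Named genes are the highest subunit of each complex, up to 12 members per comparison by smallest p, the tissue isoforms, Atp5if1 and up to 4 genes per further list. Ndufa10l1, Tatdn1, Gabpa, Ndufs6, Atp5mpl and subunits named beyond this rule were chosen after their values were seen. The result of 1 complex I gene that the rule names is not reported here. The subunits and lists were chosen with earlier results of these data known. Of the 97 genes, 95 matched a current GRCr8 symbol.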

Additional observations from a re-analysis of the deposited data

Results flagged for a closer look

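In 86 groups of 4 libraries, 4 had a library whose gap to the nearest other exceeded 0.829 of the group's range, which chance gives in about 1 group in 20. Atp5if1 was highest in H1.4 CFT library 2, at 69.4 CPM, with 66.9 to 67.2 CPM in the other H1.4 CFT libraries. Atp5pb was highest in H1.4 CFT library 3, at 182 CPM, with 173 to 174 CPM in the others. Ndufa13 was highest in WT H1.4 library 3, at 42.6 CPM, with 39.9 to 40.1 CPM in the others. Uqcrc2 was highest in WT H1.4 library 2, at 155 CPM, with 144 to 145 CPM in the others.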

How the results depend on the processing

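The direction of a call was reversed for 0 of the subunits past the threshold under any alternative. Between the histone groups, the 21 rises in H1.4 CFT became 35 with libraries 3 and 4 alone and 11 with libraries 1 and 2 alone, and 13 to 20 when a library was left out. The 3 falls became 5 with a term for number pair (Uqcrfs1 and Atp5if1 added) and 2 to 5 when a library was left out. For H1.4 CFT and GFP, the 5 rises became 12 and the 8 falls 1 with libraries 1 and 2 alone, the falls became 17 with libraries 3 and 4 alone, and leaving out a library gave 3 to 6 rises and 3 to 16 falls. For WT H1.4 against GFP, the 0 rises became 1 (Cox4i2) with libraries 3 and 4 alone. The 2 falls became 1 with RLE scaling, 4 without the filter, 4 with a term for number pair, 37 with libraries 3 and 4 alone, 0 with libraries 1 and 2 alone, 4 with the compared groups only and 0 with the non-robust fit. Leaving out a library gave 0 to 1 rises and 0 to 5 falls. The median log2 fold changes moved to 0.117 and 0.0253 with libraries 3 and 4 or 1 and 2 alone (histone groups), to 0.0704 with libraries 1 and 2 alone (H1.4 CFT against GFP), and to -0.158 and 0.0671 (WT H1.4 against GFP). With the replicate number as a block, 23 rose and 4 fell in H1.4 CFT relative to WT H1.4, 6 and 9 relative to GFP, and 0 and 2 in WT H1.4 against GFP, and beyond Sdha against GFP the block ended no call. By their labels WT H1.4 and GFP libraries share only a number, and what it marks is not given in the sources used here. Their same-numbered libraries deviated together (correlations 0.0927 to 0.206), and Ndufa10l1 followed the number pair in both groups. The cause of these shifts was not tested.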
